A study of Caenorhabditis elegans with 2 samples.

Results

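The numbered cuticle collagen genes are the genes of the nematode Caenorhabditis elegans whose names consist of col- and a number. There were 156 of them among the 19973 protein-coding genes of the WBcel235 annotation. Membership was set by name and not by binding values, but the class was chosen with earlier results of these data known. The data are chromatin immunoprecipitation sequencing (ChIP-seq) of the GATA factor ELT-3 in whole L3 larvae of mixed sex from strain OP75. Its genotype is unc-119(ed3) III; wgIs75, and the integrated transgene supplies ELT-3 joined to green fluorescent protein, so every library came from animals with the transgene and the unc-119 mutation. There were 2 biological replicates in 1 group, and no second condition. Whole animals were used, so binding in the epidermis and in other tissues cannot be told apart. In the labels the antibody is listed for elt-3, and they describe the assay as directed at eGFP-elt-3, so whether GFP or ELT-3 itself was recognised is not stated, nor is how much protein the transgene makes. A control is named by the labels, but its data were not used here.

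Cuticle collagens are secreted by the epidermis and form most of the worm's cuticle, a coat that is made anew at each moult. Each chain carries repeats of glycine followed by other amino acids, which fold into a triple helix and are then cross-linked outside the cell. Collagen genes are switched on in waves during each moulting cycle, and some are used only at particular stages. GATA factors bind sites with the core GATA, and ELT-3 is present in the main epidermal syncytium, where the collagen genes are transcribed. Many of the numbered genes have no visible phenotype of their own, unlike the collagen genes named for dumpy, roller, squat or blister animals.

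Binding was read from the authors' lists of regions. The pooled list held 21761 regions and each replicate list 30000. These relaxed lists hold background as well as peaks, and the authors' signal value is on a scale that no source used here explains. Regions were therefore ranked by signal within each list, with rank 1 the strongest. The 280 regions that passed the authors' irreproducible discovery rate (IDR) threshold were the 280 strongest of the pooled list. A gene was counted when a region's summit fell in its promoter window, here the stretch that begins 1000 bp before the gene's 5′ end and stops 200 bp after it. All coordinates are 1-based on ce11. The read depth of the libraries is unknown here.

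The summit sequences are shown first, because what they hold differs between the strongest collagen promoters. The GATA motif was searched as AGATAA or as AGATAG, and likewise as TGATAA or as TGATAG, on either strand (written WGATAR below), within 50 bp of a summit. These windows reach 50 bp to each side of the pooled summit, written on the strand of the gene, with each motif match in capitals. They were read from the RefSeq copy of WBcel235. The first 5 are from the 20 best-ranked members and hold the motif.

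col-167 (chrX:6323288-6323388, + strand): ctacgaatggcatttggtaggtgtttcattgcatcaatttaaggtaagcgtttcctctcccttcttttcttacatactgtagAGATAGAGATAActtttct
col-93 (chrIII:10986213-10986313, - strand): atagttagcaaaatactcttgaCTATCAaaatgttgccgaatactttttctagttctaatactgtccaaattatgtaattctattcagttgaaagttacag
col-144 (chrV:9160748-9160848, - strand): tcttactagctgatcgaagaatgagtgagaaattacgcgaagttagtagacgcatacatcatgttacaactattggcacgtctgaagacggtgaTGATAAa
col-43 (chrV:8051650-8051750, - strand): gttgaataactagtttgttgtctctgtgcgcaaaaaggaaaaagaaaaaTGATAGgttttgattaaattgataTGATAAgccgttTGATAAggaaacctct
col-166 (chrX:6279824-6279924, + strand): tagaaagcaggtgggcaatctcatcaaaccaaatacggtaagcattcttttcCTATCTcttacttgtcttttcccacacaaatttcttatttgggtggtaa

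The windows of col-41 and col-145 are given for contrast. Both ranked in the same range, and these pooled windows held no match. At col-145 the replicate 2 summit lay elsewhere, 937 bp upstream, and did have the motif within 50 bp.

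col-41 (chrX:15176562-15176662, - strand): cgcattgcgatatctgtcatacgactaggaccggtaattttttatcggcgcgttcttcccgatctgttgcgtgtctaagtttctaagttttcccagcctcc
col-145 (chrV:9163714-9163814, - strand): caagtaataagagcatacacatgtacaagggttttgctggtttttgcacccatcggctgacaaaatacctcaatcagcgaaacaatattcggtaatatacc

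The col-43 window held 3 matches, starting at bases 50, 74 and 86 counted from its 5′ end. The col-167 window held 2 abutting matches, starting at bases 83 and 89. In col-166 the single match started at base 53, almost at the summit, and in col-144 at base 95, near the edge of the window.

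A pooled region lay in the promoter window of 60 of the 156 numbered collagen genes, 38.5% (95% Wilson interval 31.2 to 46.3, which covers counting error over genes only). Over all protein-coding genes the share was 26.9%. The replicate 1 list had a summit in the window of 72 members, 46.2% (38.5 to 54.0), beside 36.6% of all genes. In replicate 2 it did so at 70 members, 44.9% (37.3 to 52.7), beside 33.6%. A summit in the window in all 3 lists, not always of the same region, was present at 31 members, 19.9% (14.4 to 26.8), beside 13%. The members' share was thus 1.26 to 1.52 times that of all genes in these 4 counts. Regions of both replicates overlapped the strongest pooled region at 27 members, 17.3% beside 11.9% of all genes. Genes are not replicates, and no test was run on these shares.

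**Figure D1:**
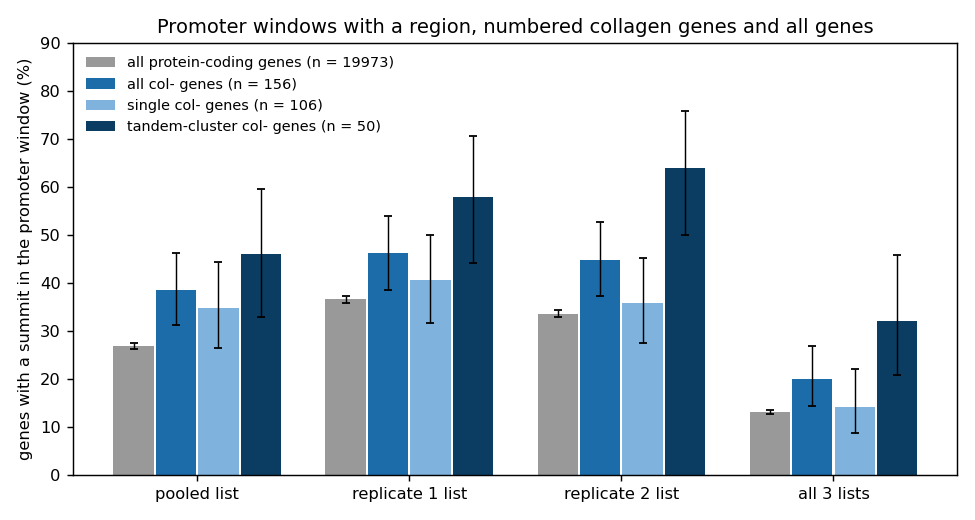
Share of promoter windows (percent, vertical axis) that held a region summit in the pooled list, in each replicate list and in all 3 lists. Grey bars are all protein-coding genes, blue bars the numbered collagen genes together (156), single (106) and in tandem clusters (50), and error bars are 95% Wilson intervals. Tandem-cluster genes have the highest bar in each list, from 46.0% in the pooled list to 64.0% in replicate 2.

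The regions at collagen promoters were of ordinary strength. Their median rank in the pooled list was 10518 over the 60 members with a region, and 9898.5 over the 5364 genes of any kind with one. The corresponding median signals were 19.1 and 19.4, and the members' signals ran from 15.2 to 67.0. In replicate 1 the median rank was 12517 for the members and 13011 for all genes, and in replicate 2 it was 13624 and 14001. In each full list the 2 medians were close together. They lay further apart, in opposite directions, when the replicate lists were shortened, as given below.

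Strong regions were at few members. Among the 1000 strongest pooled regions, 4 members had one, 2.56% (1.00 to 6.41), beside 1.98% of all genes. These 4 were col-62, col-50, col-51 and col-167. With replicate 1 alone, 2 members had one of its 1000 strongest regions, 1.28% beside 2.24% of all genes. With replicate 2 alone there were 4, 2.56% beside 1.48%, so the replicates placed the members on opposite sides of the background. With regions assigned only to the gene with the nearest 5′ end, 2 members had one of the 1000 strongest pooled regions, 1.28% beside 1.63%. One member, col-62, was in the IDR list, 0.641% beside 0.666%. These shares are near the background and are no result about the collagen genes as a class. The last member within the 1000 strongest was col-167, of rank 895, and the next ones, col-83 and col-76, had ranks 1004 and 1018.

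The strongest region was at col-62 (WBGene00000638, chromosome I, 7403291 to 7404374, minus strand). Its pooled signal was 67.0, of rank 87. The signal was 34.9 in replicate 1 and 28.9 in replicate 2, of ranks 164 and 117. It was the best-ranked member in each of the 3 lists. The region spans 7404685 to 7405040, and its summit lay 489 bp upstream of the 5′ end, between genes. In replicate 1 the summit was at the same base, and in replicate 2 it was 471 bp upstream. The motif was within 50 bp of the summit in all 3 lists. The same summit also falls in the promoter window of C15A11.7. The gap from the 5′ end of col-62 to the next protein-coding gene upstream is 575 bp. The summit thus lies closer to that gene than to the 5′ end of col-62, and it cannot be assigned to col-62 rather than C15A11.7. The neighbour col-7, transcribed towards col-62, had no region in any list.

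A single summit served col-50 and col-51, which are transcribed away from each other on chromosome I. The shared pooled region (3653462 to 3653817) had a signal of 36.4 and rank 676. Its signal was 17.8 in replicate 1 and 18.5 in replicate 2, of ranks 1342 and 1629. The summit lay 357 bp upstream of col-51 and 938 bp upstream of col-50. It held the motif within 50 bp in replicate 1 but not in the pooled list or in replicate 2, whose summits lay elsewhere in the region, 404 bp upstream of col-51 in replicate 1 and 338 bp in replicate 2. This region counts for both genes in the shares above.

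The replicates disagreed at col-167, on chromosome X (6323488 to 6324393, plus strand). Its pooled region (6323160 to 6323515) had a signal of 33.7 and rank 895, with the summit 150 bp upstream. The signal was 30.03 in replicate 1, of rank 256. In replicate 2 it was 10.04, of rank 20251 of 30000. The motif was within 50 bp of the summit in the pooled list and in replicate 2, and not in replicate 1. The replicate 2 summit lay 10 bp upstream, 140 bp from the pooled one, so its match is not one of those shown above. In replicate 1 the summit lay 172 bp upstream.

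The next members had similar pooled signals and lay in or beside other genes. At col-83 (chromosome II) the signal was 32.9 in the pooled list, 12.4 in replicate 1 and 20.3 in replicate 2. Its summit lay 193 bp upstream, in an untranslated part of an exon of F33A8.4. At col-76 (chromosome II) the signals were 32.8, 16.4 and 15.7, with the summit 384 bp upstream in an untranslated part of an exon of qua-1. The summit therefore cannot be assigned to col-76 rather than qua-1, and the same holds for col-83 and F33A8.4.

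At col-41 (chromosome X) the signals were 32.6 in the pooled list, 15.4 in replicate 1 and 14.1 in replicate 2. The summit lay 131 bp upstream, in an intron of ucr-2.2. At col-93 (chromosome III) the signals were 32.4, 17.5 and 12.2, with the summit 654 bp upstream in an intron of dhc-4. The col-93 summits of the 3 lists lay within 2 bp of each other and each held the motif shown above.

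Several members among the 20 best-ranked were carried by replicate 2. At col-63 the signal was 20.8 in replicate 2, of rank 799, and the strongest summit of replicate 1 in the window, at another place, had 6.91 and rank 26517. At col-2, a collagen gene known from dauer larvae, the region had a signal of 25.9 in the pooled list and 15.7 in replicate 2, and replicate 1 had no summit in the window. The pooled col-2 summit, 397 bp upstream, is also in the window of ndc-80. At col-39 the signals were 27.8 in the pooled list, 9.50 in replicate 1 and 17.3 in replicate 2. Its summits lay 97, 96 and 97 bp downstream of the 5′ end, inside the gene's own coding exon.

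Others were carried by replicate 1. At col-176 the signal was 23.2 in the pooled list and 17.1 in replicate 1, of rank 1567, and replicate 2 had no summit in the window. At col-166, also on chromosome X, the signals were 22.2, 16.0 and 9.15, with ranks 5899, 2003 and 25466. Its pooled summit was 142 bp upstream, with the replicate 1 summit within 2 bp of it, and the replicate 2 summit was 546 bp upstream.

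At col-54 the signals were 25.8 in the pooled list, 14.6 in replicate 1 and, at another summit, 12.5 in replicate 2. At col-43 they were 24.9, 11.99 and 13.3, and the motif was within 50 bp of the summit in all 3 lists. The pooled col-43 summit, 789 bp upstream, is also in the window of sth-1. The remaining members of the 20 best-ranked were col-46, col-60 and col-81, with pooled signals of 22.8, 22.2 and 22.2.

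The 5 best-ranked members of replicate 1 were col-62, col-167, col-50, col-51 and col-93, and those of replicate 2 were col-62, col-63, col-52, col-83 and col-144. Only col-62 was in both. At col-52 the signal was 20.7 in replicate 2, of rank 841. It had a pooled region of rank 8838 and none in replicate 1. Across the 40 members with a region in both replicates, Spearman's rho of the 2 signals was 0.221, and across the 3232 such genes of any kind it was 0.246. Both are given as description, since the points come from the same pair of libraries. The strongest summits of the replicates lay within 100 bp of each other at 15 of these 40 members, 37.5%, beside 37.1% of all such genes.

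**Figure D2:**
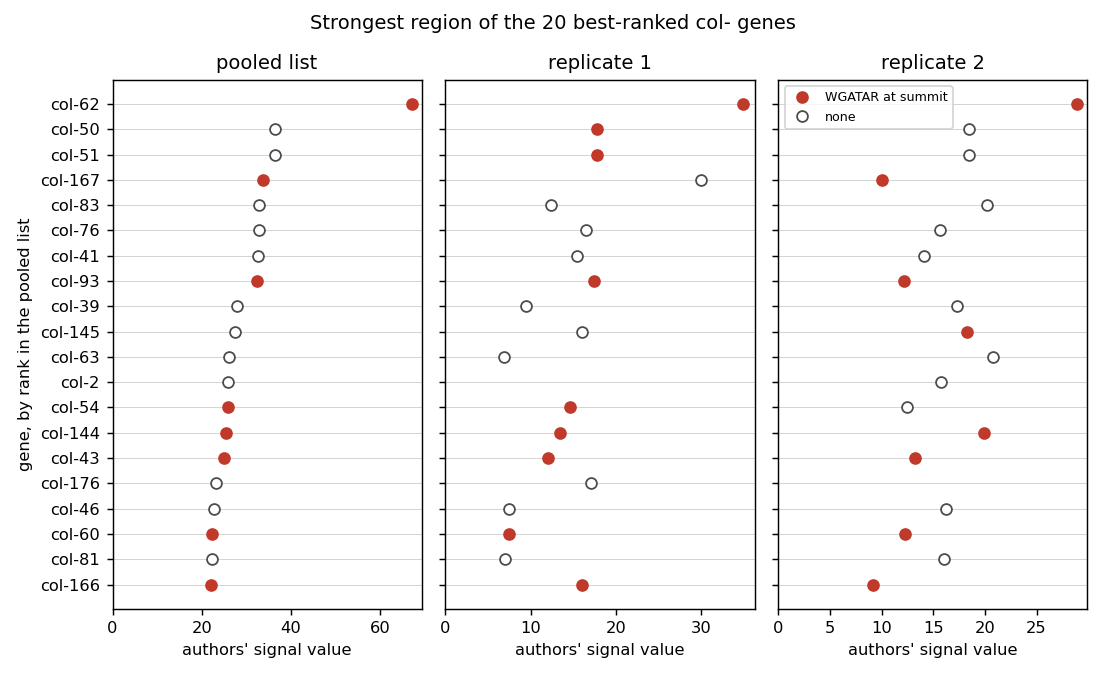
Authors' signal value (horizontal axis, scaling not given, a different range in each panel) of the strongest region in the promoter window of the 20 best-ranked numbered collagen genes, in the pooled list and in each replicate. Filled points have WGATAR within 50 bp of the summit, open points have none, and a missing point means no region in that list. The col-62 point is the highest in each panel, and col-167 is high in replicate 1 (30.03) and low in replicate 2 (10.04).

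Members' summits held the GATA motif more often than the sequence beside them did. It was present at 21 of the 60 pooled summits, 35.0% (24.2 to 47.6), and in 11 of the windows of the same length centred 500 bp to the right, 18.3% (10.6 to 29.9). The shift ran with transcription for plus-strand genes and against it for minus-strand genes, and some shifted windows can fall inside the gene. GC content of the shifted windows was not computed, so they are not a matched promoter background. At the strongest pooled regions of all 5364 genes with one, the shares were 24.0% at the summit and 20.9% beside it. Over all 21761 pooled regions they were 23.9% and 20.5%. In replicate 1 the motif was at 28 of 72 members' summits, 38.9% (28.5 to 50.4), and beside 15, 20.8% (13.1 to 31.6). In replicate 2 it was at 21 of 70, 30% (20.5 to 41.5), and beside 11, 15.7% (9.01 to 26.0). The corresponding shares for all genes were 23.4% and 20.2% in replicate 1 and 23.7% and 20.6% in replicate 2.

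The members' motif share was thus above that of all genes in each list, and the interval included the all-gene value in replicate 2, while in the pooled list its lower end, 24.2%, was just above 24.0%. No test was run. GC content of the summit windows had a median of 34.7% for the members and 33.7% for all genes in the pooled list. The 60 members shared 57 summits, of which 20 (35.1%) held the motif. At the 21 members with a motif, the centre of the nearest match was a median of 11.5 bp from the summit, and it was within 25 bp at 14 of them. It was 1.5 bp away at col-43, 4.5 bp at col-166 and 6.5 bp at col-62. At col-144 it was 46.5 bp away. Of the 20 best-ranked members 8 had the motif, and of the other 40 members with a region 13 did.

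**Figure D3:**
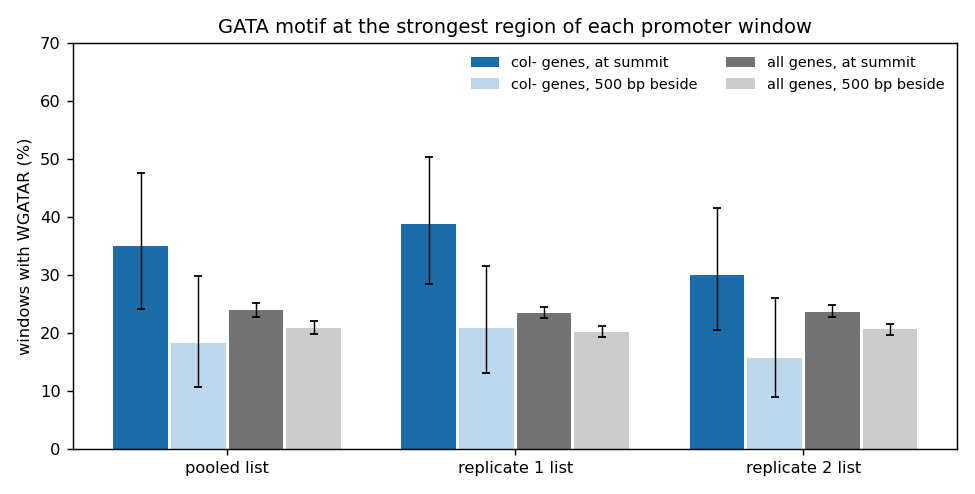
Share of windows with WGATAR (percent, vertical axis) at the strongest summit in the promoter window and in a window of the same length 500 bp to the right, for numbered collagen genes (blue) and all protein-coding genes (grey), in each list. Error bars are 95% Wilson intervals. At the collagen genes the summit bar exceeds the bar beside it in each list, 35.0% against 18.3% in the pooled list.

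Over the whole promoter window the motif is common in the genome. It was present in 152 of the 156 members' windows (97.4%) and in 93.3% of all windows of this length, with a mean of 3.72 and 3.10 matches. The median GC content of these windows was 35.7% and 35.0%. The 60 members with a pooled region had a mean of 4.10 matches, and the 96 without had 3.49. A match is a description of the letters and not a binding site.

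Tandem arrangement was compared next. A cluster was defined as 2 or more members whose gene bodies lie at most 5000 bp apart, on either strand. This gave 106 single genes and 21 clusters with 50 genes, of which 15 clusters had 2 genes, 5 had 3 and 1 had 5. In the pooled list 37 of 106 single genes had a region, 34.9% (26.5 to 44.4), and 23 of 50 cluster genes did, 46.0% (33.0 to 59.6). In replicate 1 the shares were 40.6% (31.7 to 50.1) and 58.0% (44.2 to 70.6), and in replicate 2 they were 35.8% (27.4 to 45.3) and 64.0% (50.1 to 75.9). A summit in the window in all 3 lists was present at 15 single genes, 14.2% (8.77 to 22.0), and at 16 cluster genes, 32.0% (20.8 to 45.8). The single genes' share in all 3 lists was close to the 13% of all genes.

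Cluster genes are not independent, since neighbours can share a summit. The 23 cluster genes had 20 distinct pooled summits, and the 37 single genes had 37. Counted as clusters, 14 of 21 had a pooled region at 1 member or more, and 5 had one at each member. A cluster has more windows than a single gene, and no all-gene share was computed for groups of genes. The count of clusters therefore cannot be set beside the shares per gene. The difference between single and cluster genes was not tested, and its size varied with the definition. With clusters limited to neighbours on the same strand, 13 of 32 cluster genes (40.6%) and 47 of 124 single genes (37.9%) had a pooled region. With gene bodies at most 2000 bp apart, 22 of 44 cluster genes (50%) and 38 of 112 single genes (33.9%) had one, and a limit wider than 5000 bp left the counts as they were. The median distance from the 5′ end to the next protein-coding gene upstream was 881 bp for single genes, 772.5 bp for cluster genes and 936 bp for all genes. Cluster regions also held the motif, at 9 of 23 (39.1%, 22.2 to 59.2), beside 12 of 37 at single genes (32.4%, 19.6 to 48.5).

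The only cluster of 5 genes, col-167 to col-171, lies on chromosome X from 6323488 to 6335221, all on the plus strand. Pooled regions were at 4 of the 5 genes. After col-167, with a signal of 33.7, came col-171 with 19.8, col-168 with 17.95 and col-169 with 17.4. Replicate 1 had a region at all 5 genes, with signals of 30.03 at col-167, 13.8 at col-168, 9.42 at col-169, 9.04 at col-170 and 8.05 at col-171. Replicate 2 had one at 3 of them, with 10.04 at col-167, 8.55 at col-170 and 9.80 at col-171. In replicate 1 the signals were lower at each gene further along the cluster, and in replicate 2 they were not. The pooled summits of col-167, col-168 and col-169 held the motif, and that of col-171 did not. The stretches between 250 bp before and 50 bp after the 5′ ends were 62.2% identical between col-167 and col-168, the highest value within this cluster.

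A cluster of 3 genes on chromosome V, col-144, col-145 and col-10, had a region at each gene in each list. The gene col-144 has been studied as an ELT-3-dependent collagen gene, and the col-10 promoter is used to drive transgenes in the epidermis. At col-145 the signals were 27.4 in the pooled list, 16.0 in replicate 1 and 18.3 in replicate 2. At col-144 they were 25.4, 13.4 and 19.9, with ranks 3175, 3841 and 1062. At col-10, whose pooled summit is in its own intron, they were 15.8, 8.30 and 8.68, close to the lowest values of the lists, which are 15.1, 6.45 and 8.47. These values are not of the same region. The pooled and replicate 2 summits of col-10 lay 161 and 75 bp downstream of the 5′ end. The replicate 1 summit lay 682 bp upstream, and no replicate 1 region overlapped the pooled one. The summits of the 3 lists at col-144 lay at different places, 156, 501 and 73 bp upstream, and each held the motif. At col-145 the pooled and replicate 1 summits lay 759 bp upstream and held no motif. The replicate 2 summit of col-145, 937 bp upstream, held it. Of the 30-base words in the col-10 region, 29.4% occur more than once in the genome. How reads over such words were placed was not examined.

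**Figure D4:**
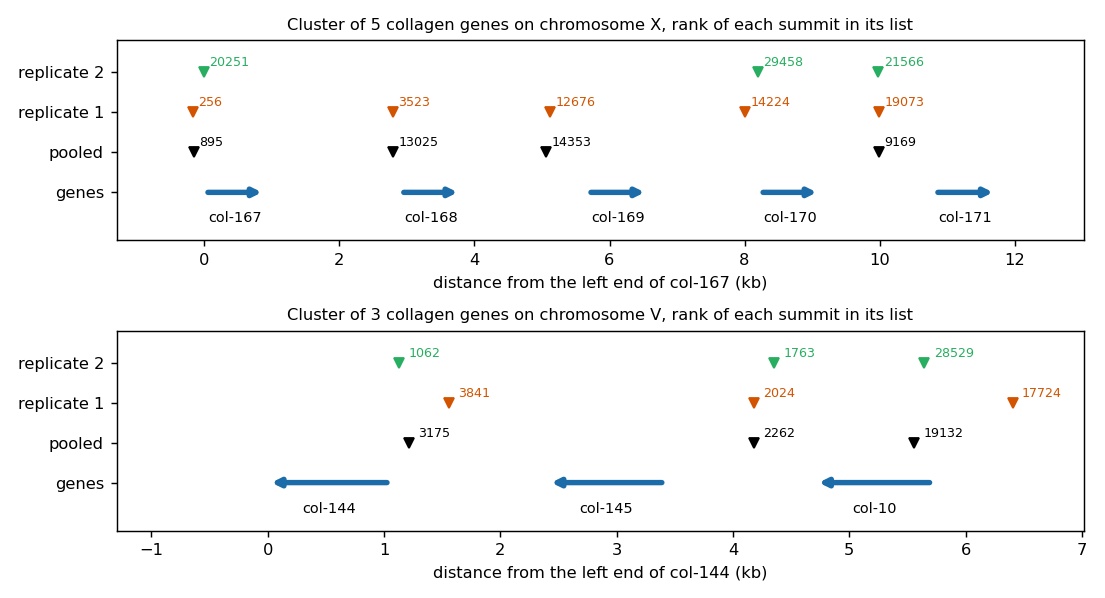
Map to scale of the 5-gene cluster on chromosome X (top) and the 3-gene cluster on chromosome V (bottom), with distance from the left end of the first gene in kb on the horizontal axis. Arrows are genes and triangles the strongest summit in each gene's promoter window, with its rank in that list beside it. At col-167 the ranks are 256 in replicate 1 and 20251 in replicate 2, and at col-145 they are 2024 and 1763.

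Other clusters had regions at part of their genes. In the cluster of col-92, col-93 and col-94 on chromosome III only col-93 had a pooled region. In the cluster of col-79, col-39 and col-80 on chromosome II only col-39 had one. In the cluster of col-17, col-20 and col-73, also on chromosome II, col-17 had one, with a signal of 16.8, none in replicate 1 and 11.7 in replicate 2. The gene col-17 is known as a larval collagen gene. The overlapping genes col-159 and col-160 on chromosome V have 5′ ends close together and shared 1 pooled summit with a signal of 21.0. Its summit window held 1 motif.

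Among the other well-studied members, col-12, col-13 and col-19 had no pooled region. The gene col-19, whose expression marks the adult epidermis, had no pooled region and none in replicate 2, and its region in replicate 1 had a signal of 7.35 and rank 23468. The near-identical genes col-12 and col-13 had no pooled region. In replicate 1 col-13 had one of rank 29408, and col-12 had none in any list. Of the 30-base words of their promoter windows, 0.0% at col-12 and 12.6% at col-13 occur elsewhere. The gene col-120 had signals of 20.8 in the pooled list, 11.0 in replicate 1 and 12.1 in replicate 2, with the pooled summit 833 bp upstream in an intron of flh-1. At col-34 the signals were 17.8, 8.80 and 10.2. The 8.80 of replicate 1 was at a summit 945 bp upstream, and the pooled summit was 168 bp upstream. The replicate 1 region that overlapped the pooled one at col-34 had a signal of 6.91 and rank 26477. A missing region says only that none was listed there, since the depth is unknown.

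The members' pooled summits lay mostly between genes. Of the 60, 41 (68.3%) were between protein-coding genes, 7 in introns, 5 in untranslated parts of exons and 7 in coding exons. For all genes with a region, 64.7% were between genes. The median position was 370.5 bp upstream of the 5′ end for the members and 343 bp for all genes, and 7 of the 60 members' summits were downstream of it. For 50 of the 60 the member's own 5′ end was the nearest protein-coding 5′ end to the summit. The 5′ end lay inside another protein-coding gene at 30 of the 156 members (19.2%) and at 6.96% of all genes, and 9 of these 30 had a pooled region, 30%, beside 26.8% of all such genes.

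The members' share varied by chromosome. It was 13 of 21 (61.9%) on chromosome I, where 33.3% of all genes had a pooled region. On X it was 12 of 27 (44.4%), beside 31.6%. On II it was 10 of 24 (41.7%), beside 25.7%, and on V 11 of 31 (35.5%), beside 25.5%. On IV it was 11 of 41 (26.8%), beside 21.9%, and on III 3 of 12 (25%), beside 25.1%. Weighted by the members' chromosomes, the all-gene share was 26.7%, beside 26.9% unweighted. The motif was at 7 of the 13 members with a region on chromosome I, at 5 of 12 on X, at 5 of 11 on V, at 2 of 3 on III, and at 1 each of 10 on II and 11 on IV.

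**Figure D5:**
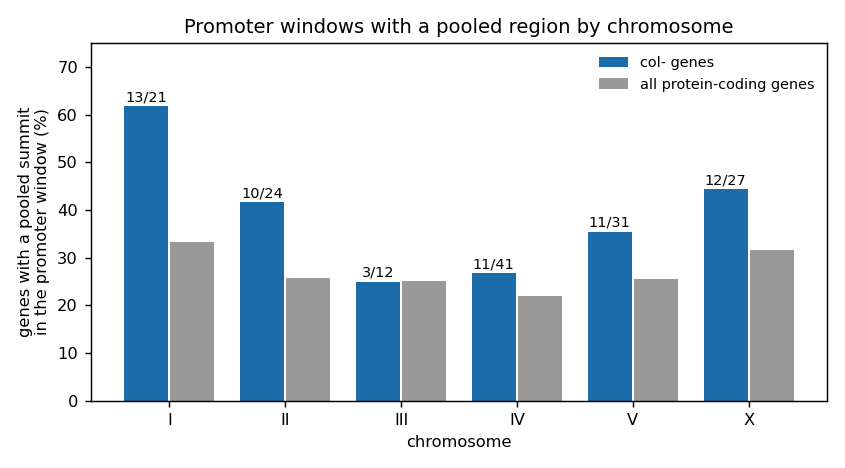
Share of promoter windows with a pooled summit (percent, vertical axis) by chromosome, for numbered collagen genes (blue, with counts above the bars) and all protein-coding genes (grey). The collagen bar is highest on chromosome I (61.9%) and level with all genes on chromosome III (25% and 25.1%).

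Other cuticle genes were counted by the same rule. They were 20 collagen genes named for body shape and 8 genes listed for collagen processing and cross-linking, not all of which need encode enzymes. Among the body-shape collagens 10 of 20 (50%) had a pooled region, 16 (80.0%) one in replicate 1, 9 (45.0%) one in replicate 2, and 7 in all 3 lists. The strongest were dpy-5 with a pooled signal of 39.9, rol-6 with 38.3 and dpy-9 with 36.8. These 3 were within the 1000 strongest pooled regions, of which 1.98% of all genes had one. The motif was at 4 of these 10 pooled summits. Among the processing and cross-linking genes 3 of 8 (37.5%) had a pooled region, beside 26.9% of all genes. One of them, dpy-31, which encodes a protease that cuts collagen, was in the IDR list with a signal of 57.2. Of all genes, 0.666% had a region of that list. The difference between these genes and the numbered collagens was not tested.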

How the data were processed

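ELT-3 binding was measured by ChIP-seq in 2 biological replicates. Per the README text deposited with the data, each replicate list came from that replicate's alignments and the pooled list from both, each with a further input whose kind is not stated, and the IDR list from these 3. The signal value and the −log10 q-value of each region are as the authors deposited them, and the latter was not used. No source used here names the aligner, the peak caller or the read depth. Lists on ce10 were not used.

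Genes were taken from Ensembl release 115 (WBcel235). Each gene received the strongest region with its summit in the promoter window. Shares have Wilson intervals (statsmodels 0.14.6), and alignments used Biopython 1.88. The counting was checked on simulated data. No group comparison exists, and no p-value was computed. The 20 members best ranked in the pooled list, the 5 best in each replicate list, large clusters and 9 well-studied members were named. Other genes sharing a summit or a cluster with these were named after their values were seen. Members and lists were chosen with earlier results of these data known.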

Additional observations from a re-analysis of the deposited data

How the results depend on the processing

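Of 68 recalculations, 50 gave a count within 1.5 times the reported one or a median rank within 2385.8 of it. That limit is the SD of the median over the 2 replicate lists, each cut to its 21761 strongest regions. Both of these medians are themselves among the recalculations, so the limit is a rough one. The share of members with a pooled region exceeded that of all genes under each of 7 alternatives, by 1.24 to 1.46 times. From 500 bp upstream to 100 bp downstream, 35 of 156 members had a pooled region (21 single and 14 cluster genes), 22.4% beside 16.0% of all genes. There, 16 had one in all 3 lists, 10.3% beside 6.16%, and 13 had the motif. From 2000 bp upstream to 500 bp downstream, 94 had a pooled region (58 single and 36 cluster), 60.3% beside 44.1%. There, 70 had one in all 3 lists, 44.9% beside 28.0%. With replicate summits within 100 bp of the pooled summit, 19 members were in all 3 lists, 12.2% beside 7.48%, against 31. The motif was at 34 members within 100 bp and the GATA core alone at 39, against 21. All-gene motif shares at these looser settings were not computed, and looser settings match more often in any sequence. Cluster genes with a region numbered 13 on the same strand, against 23. Of the strongest regions, 1 member had one of 280 (0.641% beside 0.666% of all genes), 16 one of 5000 (10.3% beside 7.39%), and 2 one of 1000 when only the gene with the nearest 5′ end counted, against 4. With 1 replicate left out, and the other's list limited to its 21761 strongest regions, the members among the 1000 strongest ranged from 2 (without replicate 2) to 4. The members' median rank was then 7884.5 without replicate 2, beside 9387.5 for all genes, and 11258.5 without replicate 1, beside 10211. In the pooled list it was 12889 beside 10056 with the narrower window, and 9003.5 beside 9650 with the wider one. The 28 other cuticle genes, whose alternatives were chosen after seeing the data, gave 11 to 19 with a region, against 13. The 11 came without replicate 1, 39.3% beside 25.5% of all genes. The 19 came with the window from 2000 bp upstream to 500 bp downstream, 67.9% beside 44.1%. The causes were not tested. Read depth is unknown, so a missing region is not absence of binding. No paired analysis was possible because there is 1 group.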

Other observations

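Beyond the 60 members with a pooled region, 42 had a region in 1 or both replicate lists and none in the pooled list, and 54 of the 156 had none in any list. A region in any of the 3 lists was thus at 65.4% of members, beside 54.8% of all genes. Of the 60, 31 were in both replicate lists, 14 in replicate 1 and not replicate 2, and 15 in replicate 2 and not replicate 1. Of the 42 without a pooled region, 33 had a region in exactly 1 replicate list and 9 had one in both. These 9 were col-90, col-104, col-133, col-149, col-150, col-158, col-37, col-170 and col-184, named after their values were seen. Their replicate summits lay 117 to 943 bp apart. The best ranked of them, col-184, had signals of 12.6 in replicate 1 and 11.3 in replicate 2, 391 bp apart. At col-103, likewise named afterwards, the signal in replicate 1 was 15.2, of rank 2477, with no region in the other lists.

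By the free space upstream of the gene, 14 of 28 members (50%, 32.6 to 67.4) with 500 to 1000 bp to the next protein-coding gene had a pooled region, and 20 of 36 (55.6%, 39.6 to 70.5) with 1000 to 2000 bp. The shares for all genes were 29.0% and 26.4%. With less than 500 bp it was 17 of 57 members (29.8%) beside 26.5%, and with 2000 bp or more 9 of 35 (25.7%) beside 26.2%. These classes were chosen after the data were seen.

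Promoter windows with more than 10% repeated 30-base words were 8 of the 60 with a pooled region and 11 of the 96 without.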
